A study of Mus musculus with 6 samples.

Results

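From the 24938 genes listed for each library, 10 Kruppel-like factor genes were taken. These members were Klf2, Klf3, Klf4, Klf5, Klf6, Klf7, Klf9, Klf10, Klf13 and Klf16, found by their gene symbol. They were chosen by name, with earlier results of these data known. RNA was sequenced from NIH3T3 cells, which are an immortal line of fibroblasts from mouse embryos, in 6 libraries. For the 3 control libraries the genotype is given as wild type, and in the 3 others F-CircAE was overexpressed, a circular transcript tied to AML1-ETO, the fusion gene of human acute myeloid leukaemia. The sample titles begin with V for the controls and C for the others, and the labels do not say what these letters stand for. If the controls carry no vector, the procedure of overexpression and the circular RNA cannot be told apart. The labels do not say whether replicates came from separate cultures, so p-values reflect the spread between the libraries at hand, which may be technical.

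Kruppel-like factors bind GC-rich and CACCC-containing DNA through zinc fingers at the end of the protein. They fall into a set that mostly activates transcription (here Klf2, Klf4, Klf5, Klf6 and Klf7), a set that recruits the CtBP corepressors (here Klf3) and a set that recruits Sin3 corepressors (here Klf9, Klf10, Klf13 and Klf16). Several are induced by serum, growth factors, hormones or mechanical stress. In vessel-lining cells the kinases MEK5 and ERK5 raise Klf2 and Klf4 through MEF2 factors, and Klf4 is best known as a reprogramming factor.

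The promoters of Klf2 and Klf4 are shown because these are the most abundant members and both were highest in the same library. Klf3 and Klf9 were highest in that library too. Sequences are from RefSeq for GRCm38.p6, which is the mm10 assembly, 5′ to 3′ on the strand of the gene. They end before the earlier of the RefSeq and GENCODE starts. Capitals mark the matches to a GC box, spelled GGGCGG, and to a MEF2 site, searched on both strands. The motifs spelled CACCC and then CCAAT, the TATA box spelled TATAAA, the cyclic AMP element spelled TGACGTCA, and the CArG box were also searched and have no match in the bases shown.
Klf2, chr8:72318812-72319032, plus strand: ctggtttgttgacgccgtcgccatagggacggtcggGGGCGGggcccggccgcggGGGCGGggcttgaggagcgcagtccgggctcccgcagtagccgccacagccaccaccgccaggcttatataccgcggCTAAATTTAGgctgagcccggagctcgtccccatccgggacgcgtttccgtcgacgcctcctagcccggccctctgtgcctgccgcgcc
Klf4, chr4:55532476-55532725, minus strand: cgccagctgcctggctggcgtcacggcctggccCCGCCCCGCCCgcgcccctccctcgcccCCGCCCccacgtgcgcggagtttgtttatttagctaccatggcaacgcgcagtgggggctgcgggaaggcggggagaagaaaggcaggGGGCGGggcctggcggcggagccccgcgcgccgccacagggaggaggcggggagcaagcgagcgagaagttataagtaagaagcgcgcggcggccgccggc
The Klf2 promoter held 2 GC boxes and a MEF2 site, CTAAATTTAG, at -118 to -109 from the RefSeq start. The Klf4 promoter held 4 GC boxes, of which a pair overlapped by 1 base, and no MEF2 site. Over the 250 bases before the RefSeq start, 7 of the 10 members were in the table, and Klf5, Klf10 and Klf16 were not. Klf2 was the 1 member of these 7 with a MEF2 site, a match held by 2.92% of 32851 promoters. GC boxes were in 6 of the 7 (Klf9 held 0), against 32.7% of all promoters. The letters CACCC were in Klf2, Klf3, Klf7, Klf9 and Klf13, against 52% of all promoters. The letters CCAAT were in Klf6, Klf9 and Klf13, against 33.8% of all promoters. These matches describe letters and not bound sites.

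All 10 members passed the filter of FPKM above 1 in at least 3 libraries. They were chosen with earlier results known, so this does not describe the whole family. FPKM scales reads to gene length and library size, so a comparison of levels between genes depends on the lengths used. For Klf5, Klf6, Klf9 and Klf10 the smallest lengths that gave whole reads were 1721, 4217, 3263 and 3045 bases. The annotated lengths were 5201, 4391, 4815 and 4179 bases. Klf4 was the most abundant at 106 ± 10.1 FPKM (SD over 6 libraries), above 96.6% of the 12222 tested genes. Klf2 (48.4 ± 8.2) and Klf6 (42.8 ± 2.39) came next, then Klf9 (32.5 ± 2.4) and Klf10 (30.5 ± 2.48). Klf3 stood at 13.8 ± 0.94 FPKM, Klf13 at 10.2 ± 1.32, Klf7 at 9.72 ± 0.18 and Klf16 at 9.42 ± 0.74. Klf5, at 3.66 ± 0.41 FPKM, was the lowest, and 26.2% of tested genes lay below it. The ranges over 6 libraries overlapped between Klf2 and Klf6, between Klf9 and Klf10, and among Klf13, Klf7 and Klf16, so the order within these sets was not larger than the spread. The 5 other steps in the order were, though the spread over libraries does not cover the choice of gene length.

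**Figure D1:**
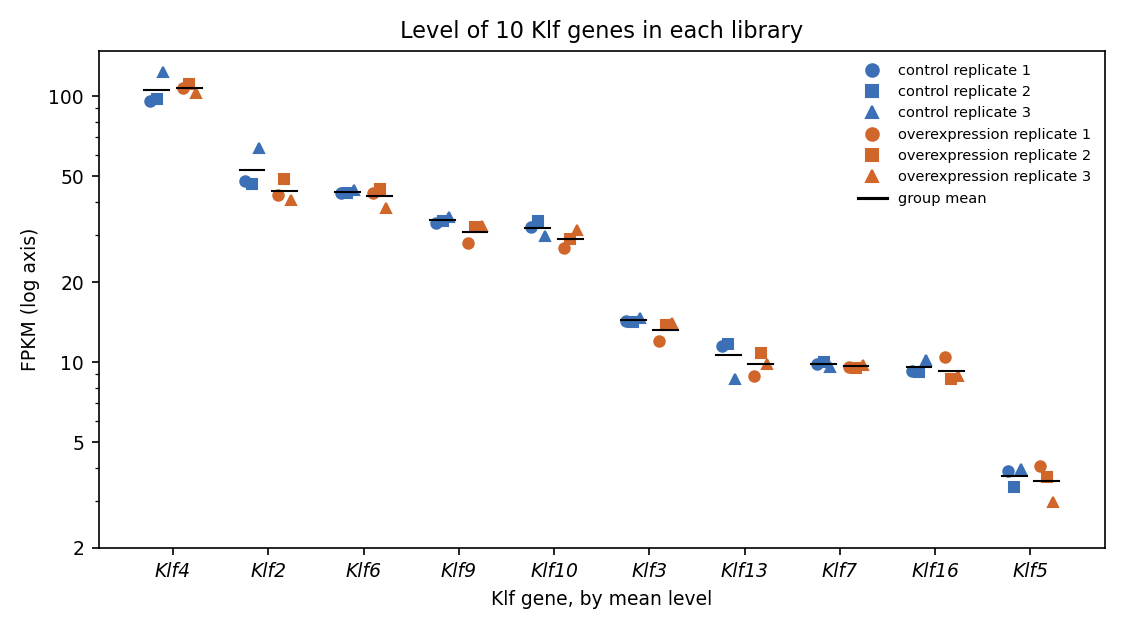
FPKM on a log axis of each Klf gene in each library, ordered by mean level, with blue for control, orange for overexpression, a symbol for each replicate and a black line for the group mean. Klf4 lies at 95.9 to 123 FPKM and Klf5 at 2.99 to 4.05. The blue triangle of control replicate 3 stands above the other points for Klf2 and Klf4, and by less for Klf3 and Klf9.

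Of 5 other members of the family that were measured, 4 were low. Klf1, Klf12, Klf15 and Klf17 were below 1 FPKM in all 6 libraries and were not tested. Klf11, a Sin3-recruiting member close to Klf10, held 8.74, 7.62 and 9.50 FPKM in the 3 controls and 5.77, 7.77 and 7.64 FPKM in the 3 overexpression libraries. Its groups overlapped, with a log2 fold change of -0.26 (95% interval -0.55 to 0.03, limma adjusted p = 0.842). Klf8 and Klf14 were not analysed here. Among the related Sp factors, which bind the same GC-rich sites, Sp1 held 20.2 to 23.3 FPKM and Sp3 27.1 to 28.8.

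The libraries had 16968180 to 21842251 reads, recovered from steps in the deposited values, and 742 (Klf5) to 38219 (Klf4) reads fell on each member over the 6. Control replicates 1 and 2 differed little more than counting error, with a mean chi-square per gene of 1.46 where counting error alone gives 1, against 5.15 to 25.1 in the other 14 pairs. Their small distance can make control SDs and p-values too small. All 8 fibroblast markers were tested, with a summed level of 1619 to 1915 FPKM in control and 1495 to 1798 with overexpression. Endothelial markers summed to 0.66 to 1.18 FPKM in control and 0.83 to 1.12 with overexpression, and 5 of 5 measured, Pecam1 and Cdh5 included, stayed below 1 FPKM in every library. Of 7 myeloid and lymphoid markers 5 stayed below 1 FPKM, Ptprc and Csf1r included, while the sum (27.7 to 31.2 in control, 24.3 to 30.3 with overexpression) came mostly from Lyz2. Epithelial markers summed to 5.95 to 8.81 and 7.09 to 8.12 FPKM, and smooth muscle markers to 25.3 to 26.05 and 20.3 to 26.2. No measured marker was at 0 in all 6 libraries, and Kdr, Cd3e and Epcam were not analysed here.

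No member passed the test between overexpression and control. Of the 10, 0 had an adjusted p below 0.05 (limma, Benjamini-Hochberg over 12222 genes), where 0% of tested genes did. The smallest adjusted p was 0.842, and 0 members had an unadjusted p below 0.05, against 5.17% of tested genes. Limma-voom on the recovered reads also called 0 members, with 0 at an unadjusted p below 0.05. Estimates lay below 0 for 9 of 10 members, against 46.8% of tested genes, and the median log2 fold change was -0.07 against 0.01 over all. The sign was not stable for Klf4, Klf5, Klf6, Klf13 and Klf16, which changed sign under at least 1 alternative setting. The 95% intervals show what these libraries could exclude. The widest reached from -0.56 to 0.06 for Klf2, and the narrowest from -0.15 to 0.10 for Klf7, both on the scale of log2(FPKM + 1), which understates the change of low genes.

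**Figure D2:**
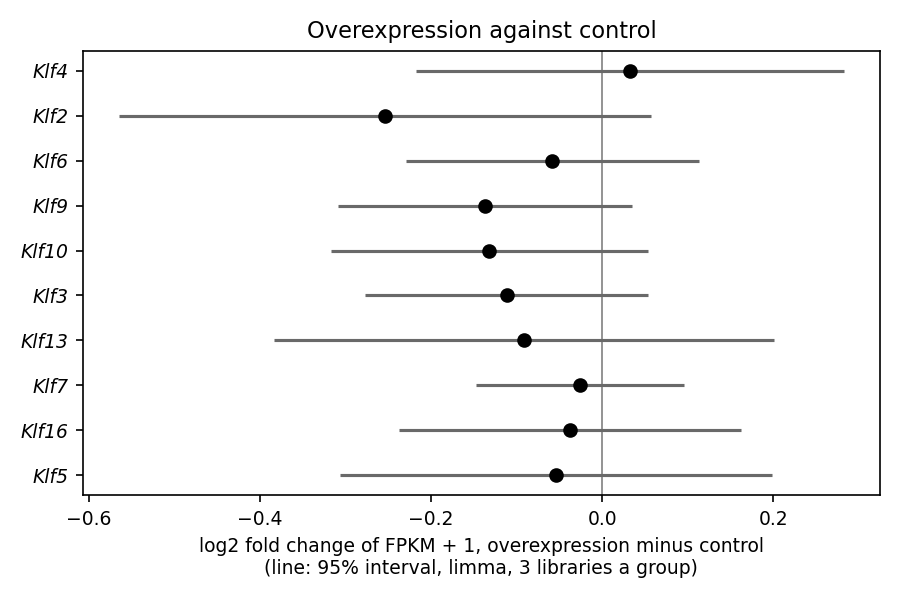
Log2 fold change of FPKM + 1 with overexpression minus control for each Klf gene (points) with its 95% interval from limma (lines), ordered by mean level. Every interval includes 0, and Klf2 at -0.25 has the lowest estimate and the widest interval.

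Among the activating members, Klf2 had the estimate furthest from 0. Klf2, a regulator of quiescence in T cells and of the response of endothelium to flow, lies on chromosome 8 from 72319033 to 72321656 (ENSMUSG00000055148, mm10, plus strand). Control replicates 1, 2 and 3 held 48.2, 46.8 and 63.8 FPKM of it, and overexpression replicates 1, 2 and 3 held 42.4, 48.7 and 40.6 FPKM. Control replicate 3 was the high one. The groups overlapped with or without it, since overexpression replicate 2 lay above control replicates 1 and 2. Group means were 52.9 ± 9.45 FPKM in control and 43.9 ± 4.26 FPKM with overexpression (SD, n = 3), a log2 fold change of -0.25 ± 0.13 (standard error, limma adjusted p = 0.842). Without control replicate 3 it was -0.11 (limma adjusted p = 0.558).

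The excess of Klf2 in control replicate 3 was larger than counting error. The 2256 reads there give a 95% Poisson interval of 61.2 to 66.5 FPKM, and the next library, overexpression replicate 2, reached 50.9 FPKM at the top of its interval. Both intervals express counting error alone, because amplified reads are not separate molecules. Control replicate 3 exceeded the next library 1.31-fold for Klf2, and 1.16% of tested genes had an excess at least as large there. The coefficient of variation of Klf2 over 6 libraries was 16.9%, against a median of 9.07% over tested genes.

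Klf4, on chromosome 4 from 55527143 to 55532466 (ENSMUSG00000003032, minus strand), held 95.9, 97.4 and 123 FPKM in the controls and 108, 111 and 103 FPKM with overexpression. Control replicate 3 was again the highest, but control replicates 1 and 2 were the lowest, so the overexpression libraries lay inside the range of the controls. The log2 fold change was 0.03 (95% interval -0.22 to 0.28, limma adjusted p = 0.957). Without control replicate 3 it was 0.15, and without control replicate 1 it was -0.03.

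Klf6, a widely expressed member, lies on chromosome 13 (5861482 to 5870394, ENSMUSG00000000078). It held 43.4, 43.1 and 44.5 FPKM in the controls and 43.2, 44.6 and 38.1 FPKM with overexpression. Overexpression replicate 3 stood apart on the low side, and the other 5 libraries lay between 43.1 and 44.6 FPKM. Klf5, known for promoting proliferation of epithelial and smooth muscle cells, lies on chromosome 14 (99298691 to 99315036, ENSMUSG00000005148). It held 3.89, 3.37 and 3.94 FPKM in the controls and 4.05, 3.70 and 2.99 FPKM with overexpression, on 96 to 137 reads a library. Its chi-square over the 6 libraries was 1.46 per degree of freedom, so little of its spread exceeded counting error. The log2 fold changes were -0.06 for Klf6 and -0.05 for Klf5 (limma adjusted p = 0.884 and 0.927).

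Klf7, a member known from axon growth in neurons, was the steadiest of the 10. It lies on chromosome 1 from 64029447 to 64122282 (ENSMUSG00000025959, minus strand) and held 9.86, 9.97 and 9.62 FPKM in the controls and 9.58, 9.52 and 9.76 FPKM with overexpression. The coefficient of variation was 1.81%, and 0.303% of tested genes had a lower one. Its chi-square per degree of freedom was 0.53, below the value of 1 that counting error gives. Exons of the long noncoding gene Gm26649 on the other strand overlap 39.3% of the Klf7 exon bases, so without strand some of its reads cannot be assigned.

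Klf3, a repressor first known from adipose and blood cells that recruits CtBP, lies on chromosome 5 from 64803388 to 64832901 (ENSMUSG00000029178, plus strand). It held 14.3, 14.2 and 14.6 FPKM in the controls and 11.97, 13.8 and 14.0 FPKM with overexpression. The groups did not overlap, with every control higher, and overexpression replicate 1 was the lowest of the 6. The log2 fold change was -0.11 (95% interval -0.28 to 0.05, limma adjusted p = 0.843), and without overexpression replicate 1 it was -0.05. Exons of Gm20033 on the other strand overlap 3.59% of its exon bases.

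Klf9, a Sin3-recruiting factor induced by glucocorticoid and thyroid hormone, was the other member whose groups did not overlap. It lies on chromosome 19 from 23141226 to 23168134 (ENSMUSG00000033863, plus strand) and held 33.3, 33.8 and 35.2 FPKM in the controls and 28.1, 32.2 and 32.6 FPKM with overexpression. Again overexpression replicate 1 was the lowest library. The log2 fold change was -0.14 (95% interval -0.31 to 0.03, limma adjusted p = 0.842). Without overexpression replicate 1 it was -0.07. Non-overlapping groups were thus seen in 2 of 10 members, and in 11.5% of tested genes.

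Klf10, first described as a gene induced early by TGF-beta, lies on chromosome 15 (38291463 to 38300706, ENSMUSG00000037465). It held 32.1, 33.9 and 29.8 FPKM in the controls and 26.9, 29.0 and 31.4 FPKM with overexpression, and overexpression replicate 3 lay above control replicate 3. The log2 fold change was -0.13 (95% interval -0.32 to 0.05, limma adjusted p = 0.843), and without overexpression replicate 1 it was -0.08. Klf10 was the 1 member that passed under any setting. With limma array weights, a setting that called 18.3% of all tested genes, its log2 fold change was -0.17 (limma adjusted p = 0.039), and with control replicates 1 and 2 averaged before weighting it was -0.10 (limma adjusted p = 0.913).

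Klf13, which regulates Ccl5 in T cells, lies on chromosome 7 (63886351 to 63938915, ENSMUSG00000052040). It held 11.5, 11.7 and 8.60 FPKM in the controls and 8.88, 10.8 and 9.83 FPKM with overexpression. Control replicate 3 was here the lowest library and control replicates 1 and 2 the highest, whereas for Klf4 control replicate 3 was the highest and the other controls the lowest. Klf16, on chromosome 10 (80567124 to 80577321, ENSMUSG00000035397), held 9.23, 9.18 and 10.2 FPKM in the controls and 10.4, 8.60 and 8.85 FPKM with overexpression. It was highest in control replicate 3 and overexpression replicate 1. The log2 fold changes were -0.09 for Klf13 and -0.04 for Klf16 (limma adjusted p = 0.891 and 0.938). Klf13 stood at -0.22 without control replicate 3 (limma adjusted p = 0.307), and at -0.03, -0.02 and -0.03 without control replicate 1, control replicate 2 and overexpression replicate 1. Klf16 stood at 0.0083 without control replicate 3 and at 0.011 without overexpression replicate 2.

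Whether other members share the profile of Klf2 was described by the root mean square, over the 6 libraries, of the difference between their deviations in log2(FPKM + 1) from their own means. A gene with the same value in every library would be at 0.20 from Klf2, and tested genes had a median of 0.23. Klf4 was the nearest member at 0.15, followed by Klf9 (0.16), Klf6 and Klf3 (0.17 each), Klf5 (0.18) and Klf16 (0.19). Klf7 (0.21), Klf10 (0.23) and Klf13 (0.29) were further from Klf2 than a flat gene. Of the 9 other members 6 were thus nearer than a flat gene, as were 25.3% of tested genes. Yet 426 tested genes, Klf2 included, were nearer than Klf4. Klf11 is outside the members and was not placed in this ranking. It too was highest in control replicate 3 (9.50 FPKM), and it was lowest in overexpression replicate 1 (5.77 FPKM). In control replicate 3 Klf2 stood 0.41 above its mean and Klf4 0.21, while Klf13 stood at -0.22. That library was the highest for 4 of 10 members (Klf2, Klf3, Klf4 and Klf9), and for 17.9% of tested genes. In overexpression replicate 3 Klf2, Klf5 and Klf6 were low together, at -0.23, -0.22 and -0.16. In overexpression replicate 1 Klf2, Klf3, Klf9, Klf10 and Klf13 were low together, at -0.17 to -0.20, while Klf5 and Klf16 were high, at 0.12 and 0.14. The share of tested genes that were as low in these libraries was not counted, so these values describe the members alone.

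**Figure D3:**
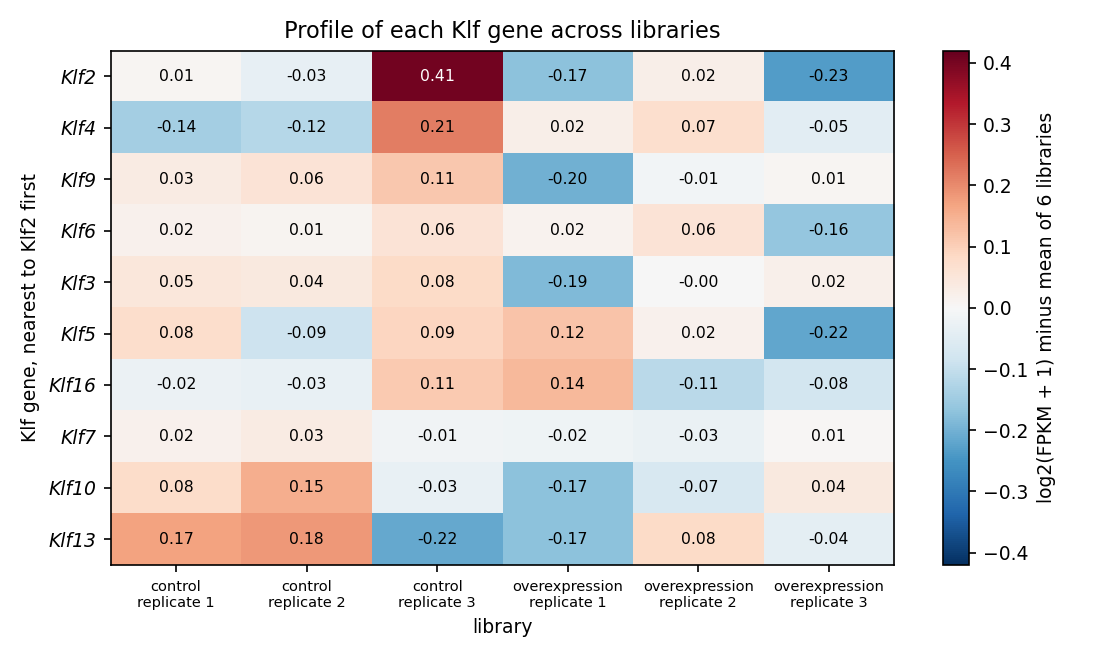
Deviation of log2(FPKM + 1) from the mean of 6 libraries for each Klf gene (rows, nearest to Klf2 first) in each library (columns), with red above and blue below the mean. Klf2 in control replicate 3 (0.41) is the largest deviation, Klf4 follows it there at 0.21, and Klf13 has the opposite sign.

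Of all genes with a mean of at least 5 FPKM outside the members, Sars2, Rhob, Sqstm1, Epc1 and Epc2 had the profiles nearest to Klf2, at 0.05 to 0.08. They were picked for this likeness over 6 libraries, so their agreement is a description. Rhob, a small GTPase of the actin cytoskeleton and endosomes, held 172, 170 and 243 FPKM in the controls and 175, 181 and 162 FPKM with overexpression. Sqstm1, the autophagy receptor p62, held 130, 129 and 163 FPKM in the controls and 122, 122 and 116 FPKM with overexpression. Sars2, the mitochondrial seryl-tRNA synthetase, held 5.75, 5.20 and 7.24 FPKM and then 5.03, 5.74 and 4.69 FPKM. Epc1 and Epc2, scaffold subunits of a histone acetyltransferase complex, peaked in control replicate 3 at 7.59 and 11.7 FPKM. Control replicate 3 was the highest library for all 5 genes, and for 17.9% of tested genes.

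**Figure D4:**
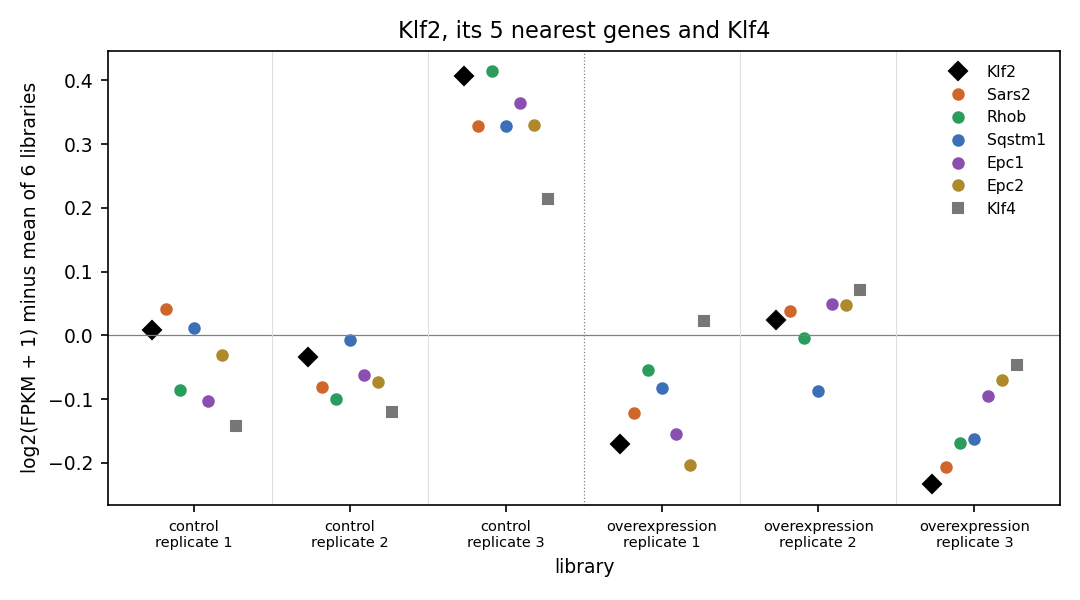
Deviation of log2(FPKM + 1) from the mean of 6 libraries for Klf2 (black diamonds), its 5 nearest genes (circles) and Klf4 (grey squares) in each library. All 7 genes are highest in control replicate 3, where Klf2 stands at 0.41 and Klf4 at 0.21.

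Control replicate 3 also differed from the other controls in fibroblast markers, mostly on the low side. Col1a1, Col1a2, Col3a1, Pdgfra, Pdgfrb and Thy1 were lower there than in the other controls, and Vim and S100a4 were higher. Pdgfrb, the PDGF receptor beta, held 17.8, 17.1 and 7.60 FPKM in the controls and 6.91, 11.9 and 11.5 FPKM with overexpression. Col3a1, a fibrillar collagen, held 148, 146 and 85.6 FPKM and then 48.8, 94.6 and 108 FPKM. Both were low in control replicate 3 beside the other controls and inside the range of the overexpression libraries, where replicate 1 was the lowest. Vim, the intermediate filament gene vimentin, was higher in control replicate 3 (606 FPKM) than in the other controls (563 and 560), as was S100a4 (3.22 beside 2.34 and 2.08). The part of these markers in the Klf2 profile was not tested.

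No gene of the kinase pathway upstream of Klf2 and Klf4 passed the test. Of 7 tested genes of MEK5, ERK5 and MEF2 signalling 0 were called in either direction, with a median log2 fold change of -0.05. Mapk7, which encodes ERK5, held 12.3, 12.03 and 12.1 FPKM in the controls and 10.1, 12.1 and 13.2 FPKM with overexpression. Mef2d, the most abundant MEF2 gene, held 18.7, 17.4 and 19.2 FPKM and then 17.5, 17.4 and 17.8 FPKM, and Map3k3, a kinase above MEK5, held 23.0, 23.3 and 23.1 FPKM and then 20.6, 22.3 and 22.3 FPKM. Mef2d was highest in control replicate 3 by a small margin, and Mapk7 was not. RNA levels do not measure the activity of these kinases.

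Coregulators and ubiquitin ligases of the family did not pass either. Of 12 coregulator genes 0 were called, with a median log2 fold change of -0.02. Ctbp1, partner of Klf3, held 45.9 to 52.6 FPKM, and Sin3a, partner of Klf9, Klf10, Klf13 and Klf16, held 12.3 to 15.4 FPKM. Ep300, an acetyltransferase, had the smallest p of the list, and its estimate was -0.13 on the log2 scale (limma adjusted p = 0.842). Of 6 ubiquitin ligase genes that act on Klf proteins 0 were called. Wwp1, a ligase of Klf2 and Klf5, held 12.2 to 13.2 FPKM, and Vhl 8.63 to 10.6 FPKM. Of 4 tested Sp genes 0 were called, Sp2 (-0.09) and Sp3 (-0.03) having the smallest p.

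Genes induced with Klf members by serum, TGF-beta or glucocorticoid were given for context, and 0 were called in these lists. Of 13 tested serum-induced early genes 10 had estimates below 0, against 46.8% of all tested genes, with a median log2 fold change of -0.09. Unlike Klf2, Egr1, an early zinc finger factor, was lowest in control replicate 3, at 18.7 FPKM beside 41.6 and 41.2 in the other controls and 22.3, 26.6 and 23.2 with overexpression. Dusp1, a MAP kinase phosphatase, held 75.9, 76.0 and 57.2 FPKM in the controls and 59.6, 63.9 and 52.1 FPKM with overexpression. Egr3 held 2.07, 2.08 and 0.74 FPKM and then 0.75, 1.25 and 0.76 FPKM.

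Of 7 tested TGF-beta early genes 5 had estimates below 0, against 46.8% of all tested genes, with a median log2 fold change of -0.009. Ccn2, a matricellular protein gene, held 44.4, 44.8 and 45.9 FPKM in the controls and 38.8, 39.8 and 40.0 FPKM with overexpression. Its groups did not overlap, and the log2 fold change of -0.18 did not pass (limma adjusted p = 0.842). Exons of Gm15270 on the other strand overlap those of Ccn2, as those of Mrnip overlap Sqstm1, so without strand some of their reads cannot be assigned. Of 5 tested glucocorticoid-induced genes 4 had estimates below 0, with a median log2 fold change of -0.04. Errfi1, a feedback inhibitor of EGF receptor signalling, held 86.4, 89.4 and 34.7 FPKM and then 47.6, 43.6 and 43.2 FPKM, and Fkbp5, a chaperone of the glucocorticoid receptor, held 12.9 to 14.7 FPKM in all libraries.

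Genes known as Klf targets were called in 0 of 6 tested cases, with a median log2 fold change of 0.08. Cdkn1a, the p21 cell cycle inhibitor and a target of Klf4 and Klf6, held 127, 130 and 165 FPKM in the controls and 151, 143 and 156 FPKM with overexpression. Its order over the controls was that of Klf4, with control replicate 3 the highest, and its order over the overexpression libraries was the reverse of Klf4. Ccnd1, another gene of this list, was also highest in control replicate 3 (139 FPKM, beside 99.3 and 98.0 in the other controls). S1pr1, a sphingosine receptor controlled by Klf2 in T cells, held 3.37, 4.07 and 3.02 FPKM and then 3.94, 3.59 and 3.87 FPKM, and was lowest where Klf2 was highest. Thbd, the thrombomodulin gene and a Klf2 target in endothelium, held 56.9, 57.1 and 66.9 FPKM and then 49.2, 65.3 and 56.9 FPKM. Nos3 and Ccl5 were below 1 FPKM in all libraries.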

How the data were processed

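RNA of 3 control and 3 overexpression libraries was analysed, grouped by genotype label. The deposited values are FPKM per Ensembl gene, scaled by the authors to gene length and library size, per the file headers. The build was mm10, per the submitters' processing notes, and the aligner, counter, strand setting and annotation were not given in the sources used here. Symbols, coordinates and exon lengths came from GENCODE M21 (24816 of 24938 genes matched).

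Low FPKM values rise in steps of 1 read, which gave the reads. For 19832 genes (79.5%) the annotated length made every library whole, to 0.01 reads and a relative 1e-08. For 5105 genes, Klf5, Klf6, Klf9 and Klf10 among them, the smallest length that did so was searched for, which is no independent check.

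Groups were compared by limma 3.58.1 (R 4.3.3), with its trend and robust options, on log2(FPKM + 1). Group was the sole term. The 12222 genes above 1 FPKM in 3 or more libraries were tested, and the threshold was a Benjamini-Hochberg adjusted p of 0.05. The procedure was also run on simulated data with independent libraries and changes larger than any member estimate. That run does not measure its error for changes as small as those here, or for control libraries as close as replicates 1 and 2. Alternatives were pseudocounts of 0.1 and 5, no filter or 5 FPKM, a block for replicate number, omission of each library, the average of control replicates 1 and 2, scaling to total reads or the upper quartile, array weights with and without that average, and limma-voom on reads of genes with at least 10 in 3 libraries. Named were all members, the 5 genes nearest to Klf2 and up to 2 tested genes of each list with the smallest p, of which some are not reported here. Other genes were chosen after their values were seen. The members and lists were chosen with earlier results of these data known.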

Additional observations from a re-analysis of the deposited data

How the results depend on the processing

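The count of 0 called members held under every alternative run except array weights, which called 1 (Klf10). Over all tested genes the count was 0 in the main test and 0 to 2 when single libraries were left out, with 2 without control replicate 3 and 1 without overexpression replicate 1, and array weights called 2241. Of 169 recomputed member values, 157 kept direction and call and 11 changed sign. For Klf4 the log2 fold change was -0.031 to 0.148 over single libraries left out, -0.025 with control replicates 1 and 2 averaged and -0.000686 after rescaling to total reads. Array weights gave Klf4 its highest value, 0.171 (limma adjusted p = 0.056). Klf5 ran from -0.128 to 0.043 and Klf6 from -0.102 to 0.0081 without single libraries, and with array weights they stood at 0.0050 and 0.016. Klf13 ran from -0.222 to -0.023 without single libraries and stood at 0.069 with array weights after averaging, and Klf16 ran from -0.115 to 0.011 without single libraries. The cause was not tested. Klf2 ranged from -0.33 to -0.019 over all settings. With the replicate number as a block 0 members and 0 genes were called, with 444 genes at an unadjusted p below 0.05 against 632. Deviations of same-numbered libraries correlated at -0.10, 0.083 and 0.0025 across genes, and not every library correlated best with its own number. The main test therefore did not pair them. With 3 libraries a group these correlations cannot tell whether same-numbered libraries were prepared together. Klf5 rests on the fewest reads (96 to 137 a library) and was not tested at the 5 FPKM filter.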
